A study of Arabidopsis thaliana with 6 samples.

Results

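The 9 brassinosteroid genes examined here were chosen by name, with earlier results of these data known. They are the synthesis enzymes DWF4, CPD, ROT3, BR6OX1 and BR6OX2, the inactivating enzyme BAS1, the receptor BRI1 and the transcription factors BZR1 and BES1. All 9 were found among the 37336 genes of the deposited table. The study sequenced polyadenylated RNA from self-pollinated siliques of *Arabidopsis thaliana*, 1 to 5 days after pollination. It compared 3 libraries of the *eml1-2 eml3-4* double mutant (*eml1 eml3*) with 3 of the wild type (WT). The labels name no accession for either genotype, and they do not say whether libraries came from separate plants, so p-values measure the spread between these libraries, which may be technical. Silique RNA mixes fruit wall, seed coat, endosperm and embryo, and in such bulk samples fewer cells of a type and less RNA per cell cannot be told apart.

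Brassinosteroids are plant steroid hormones that promote cell elongation, and they are needed for fruit growth, seed size and fertility. They are built from campesterol by a chain of cytochrome P450 enzymes and inactivated by others. At the cell surface the hormone is bound by BRI1 with a co-receptor of the SERK group. The signal stops the GSK3-like kinase BIN2 and its relatives, after which BZR1 and BES1 act in the nucleus. There they repress synthesis genes such as DWF4 and CPD and activate growth genes, so the transcript levels of synthesis and inactivation enzymes are commonly read as outputs of the pathway.

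The upstream windows of 4 genes are shown. BAS1 was the member that passed the test, and ROT3, which did not pass, was the synthesis enzyme lowest relative to WT. BZR1 was the only member whose window held a brassinosteroid response element. BIM1 was a pathway gene that passed and whose window also held that element. Each window is the 250 bases before the outermost annotated gene start in RefSeq TAIR10.1, 5′ to 3′ on the gene's strand. The build behind the authors' counts is not given in the sources used here. Capitals mark CANNTG (the E-box, of which CACGTG, the G-box, is one form) and CGTGTG or CGTGCG (the response element), searched on both strands.
BAS1 (chr2:11380213-11380462, plus strand): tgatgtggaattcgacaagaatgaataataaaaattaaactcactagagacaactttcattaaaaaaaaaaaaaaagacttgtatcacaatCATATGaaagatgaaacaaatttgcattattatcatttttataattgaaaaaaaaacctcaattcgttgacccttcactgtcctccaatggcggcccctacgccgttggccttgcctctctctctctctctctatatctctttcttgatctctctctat
ROT3 (chr4:17192508-17192757, minus strand): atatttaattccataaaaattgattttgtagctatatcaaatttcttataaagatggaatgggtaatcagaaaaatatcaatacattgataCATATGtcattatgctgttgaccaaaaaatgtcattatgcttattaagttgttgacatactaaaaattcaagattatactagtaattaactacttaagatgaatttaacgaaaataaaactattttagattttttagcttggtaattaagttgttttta
BZR1 (chr1:28185254-28185503, plus strand): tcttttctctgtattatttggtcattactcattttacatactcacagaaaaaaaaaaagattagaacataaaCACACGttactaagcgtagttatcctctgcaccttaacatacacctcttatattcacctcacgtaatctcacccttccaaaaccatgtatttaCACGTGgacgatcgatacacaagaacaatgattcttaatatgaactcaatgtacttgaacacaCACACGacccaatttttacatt
BIM1 (chr5:2610251-2610500, minus strand): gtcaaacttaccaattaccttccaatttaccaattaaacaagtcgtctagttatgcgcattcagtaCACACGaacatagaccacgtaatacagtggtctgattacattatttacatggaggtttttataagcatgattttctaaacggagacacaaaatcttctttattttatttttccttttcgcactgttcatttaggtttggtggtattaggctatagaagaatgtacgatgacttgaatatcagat

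In the BZR1 window the response element, read on the opposite strand, began at positions -178 and -22 counted from the gene start, with a G-box at -85. The windows of BAS1 and ROT3 each held 1 E-box, in both cases at -159. An E-box was present in 8 of the 9 members and in 55.3% of 27443 windows of protein-coding genes. The response element was present in 1 of the 9 members, in 7 of 68 other pathway genes (10.3%) and in 6.71% of all windows. A match of letters is a description of the window and not of binding, and no match says only that these letters are not in these 250 bases.

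The targeted genes were read first. EML3 stood at 190, 173 and 198 normalized read counts (reads divided by the authors' size factor) in *eml1 eml3* replicates 1, 2 and 3, against 2255, 2129 and 2718 in WT replicates 1, 2 and 3. EML1 averaged 1144 ± 83.7 in *eml1 eml3* and 1281 ± 88.0 in WT (SD, n = 3 each), and a whole-gene count is no check of the *eml1-2* allele. Depth was 26771227 to 39246167 reads per library, and no member had fewer than 249 reads in any library. In *eml1 eml3* replicate 3, the 10 seed storage and maturation markers summed to 49859 normalized counts, against 461 and 486 in the other mutant libraries and 962 to 1493 in WT, with 2 of the 10 at 0 in at least 1 library. The 4 pollen markers summed to 2344 to 3774 in *eml1 eml3* and to 4181 to 11126 in WT, with none at 0. The 5 silique wall markers summed to 5593 to 6056 in *eml1 eml3* and 5988 to 6716 in WT, the 6 seed coat markers to 17354 to 18791 and 16862 to 21235, and the 7 endosperm markers to 2675 to 2851 and 2820 to 3404. None of these markers was at 0 in any library, so transcripts of each of these tissues were present. At this depth that does not settle their proportions or the stage of a library.

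One of the 9 brassinosteroid genes passed the test, and it was the inactivating enzyme. BAS1 was higher in *eml1 eml3*, 2.00-fold on the ratio of means, while none of the 5 synthesis enzymes, the receptor or the 2 transcription factors passed. The test was limma on log2(normalized count + 1), with Benjamini-Hochberg adjustment over 21751 genes and a threshold of 0.05. It called 6.79% of all genes, 3.69% higher and 3.1% lower, so 1 call among 9 members (11.1%) is near the background. At an unadjusted p under 0.05 there were 3 members, BAS1, ROT3 and BRI1, against 21.5% of all genes. Of the genes called over the whole table, 54.3% were higher in *eml1 eml3*, and 41.6% after the libraries were rescaled to one total. Called by edgeR on the recovered reads were 6.49% of all genes, by DESeq2 10.3% and by limma without *eml1 eml3* replicate 3 11.7%, and in each case BAS1 was the single member called. The median log2 change of the 9 members was 0.11, against 0.0032 over all tested genes.

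BAS1 (AT2G26710, chromosome 2) encodes a cytochrome P450 that hydroxylates active brassinosteroids and so takes them out of action. Its normalized count was 545, 603 and 702 in *eml1 eml3* replicates 1, 2 and 3, against 328, 316 and 281 in WT replicates 1, 2 and 3. Every mutant library was above every WT library. The means were 617 ± 79.2 in *eml1 eml3* and 308 ± 24.6 in WT (SD, n = 3 each). The log2 change was 0.99 ± 0.17 (SE; 95% confidence interval 0.61 to 1.38; limma adjusted p = 0.00805). In the authors' deposited table it was 1.00 with a standard error of 0.20 and an adjusted p-value of 4.84e-05. BAS1 kept its call under all 16 alternatives tried, with log2 changes of 0.83 to 1.08 and limma, edgeR or DESeq2 adjusted p of 4.61e-05 to 0.0413. Without *eml1 eml3* replicate 3, where BAS1 was highest and the storage markers were high, it was 0.90 (limma adjusted p = 0.0109). The pollen marker sums also separated the genotypes, and their part in the BAS1 difference was not tested.

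**Figure D1:**
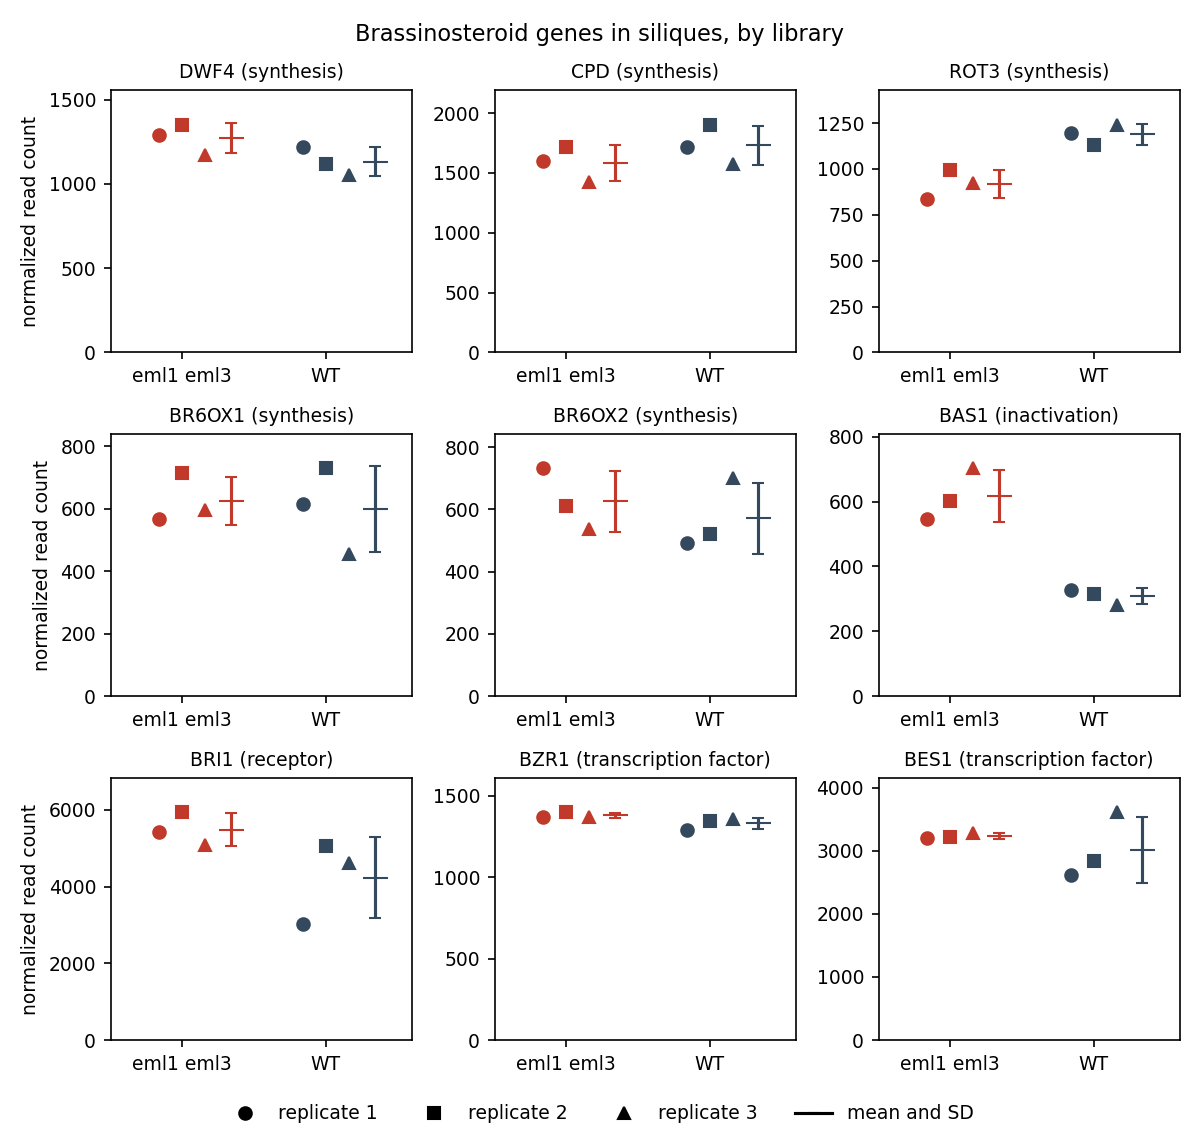
Normalized read count (y axes, from 0) of the 9 genes in the 3 libraries of eml1 eml3 (red, left) and the 3 of WT (dark blue, right), with a symbol per replicate number and the mean and SD beside them. BAS1 lies at 545 to 702 in eml1 eml3 and 281 to 328 in WT, whereas the groups of DWF4, CPD, BR6OX1, BR6OX2 and BES1 overlap.

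Of the synthesis enzymes, ROT3 (AT4G36380), a P450 that hydroxylates the steroid side chain, had the lowest level in the mutant relative to WT. It stood at 838, 992 and 925 in *eml1 eml3*, against 1197, 1129 and 1241 in WT (replicates 1, 2 and 3 in each). The groups did not overlap, and the means were 919 ± 77.3 in *eml1 eml3* and 1189 ± 56.3 in WT (SD, n = 3 each). The log2 change of -0.37 ± 0.13 (SE; 95% confidence interval -0.66 to -0.09) did not pass after adjustment (limma adjusted p = 0.115), nor under any of the 16 alternatives (limma, edgeR or DESeq2 adjusted p of 0.0806 to 0.360). Its transcript shares 83 exon bases with the opposite-strand gene AT4G36370, which had 0 reads in every library. CYP90D1 (AT3G13730), which carries out the same step in Arabidopsis and is named after its values were seen, lay in the same order, at 315, 275 and 243 in *eml1 eml3* and 394, 368 and 348 in WT, and did not pass either (log2 change -0.42 ± 0.19, limma adjusted p = 0.231).

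DWF4 (AT3G50660), the P450 usually described as rate-limiting for the pathway, stood at 1290, 1351 and 1173 in *eml1 eml3*, against 1221, 1120 and 1050 in WT. CPD (AT5G05690), which acts near it in the chain, stood at 1599, 1721 and 1424 in *eml1 eml3*, against 1714, 1903 and 1577 in WT. For both genes the groups overlapped. The log2 changes were 0.17 for DWF4 (95% confidence interval -0.11 to 0.45; limma adjusted p = 0.485) and -0.13 for CPD (-0.41 to 0.15; limma adjusted p = 0.608). These intervals bound the change of DWF4 at 0.927-fold to 1.37-fold and that of CPD at 0.751-fold to 1.11-fold. Both genes are textbook targets of repression by BZR1 and BES1, and their fitted changes had opposite signs.

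BR6OX1 (AT5G38970) and BR6OX2 (AT3G30180) are paralogues that oxidize the ring in the last steps, and BR6OX2 also makes brassinolide, the most active form. Their transcripts are 81.9% identical over 1207 aligned bases, below the 95% used here to mark near-identical copies. BR6OX1 stood at 566, 713 and 597 in *eml1 eml3*, against 614, 729 and 457 in WT. BR6OX2 stood at 731, 610 and 537 in *eml1 eml3*, against 491, 520 and 701 in WT. The groups overlapped for each, with wide intervals of -0.35 to 0.51 and -0.28 to 0.56 on the log2 scale (limma adjusted p = 0.858 and 0.728). The ratio of BR6OX2 to BR6OX1 per kilobase was 1.38 in *eml1 eml3* replicate 1 and 1.64 in WT replicate 3, and 0.764 to 0.962 in the other 4 libraries, so it varied between libraries of a genotype.

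**Figure D2:**
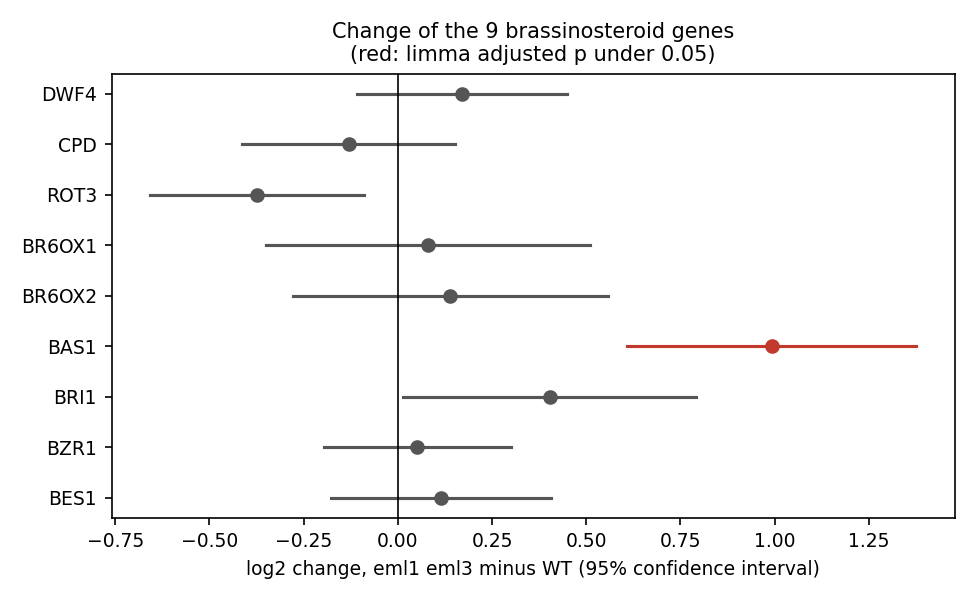
Log2 change of each gene (x axis, eml1 eml3 minus WT) with its 95% confidence interval from limma. BAS1 (red) lies at 0.99 with an interval of 0.61 to 1.38, and the intervals of DWF4, CPD, BR6OX1, BR6OX2, BZR1 and BES1 include 0.

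The receptor gene BRI1 (AT4G39400), a leucine-rich repeat kinase, stood at 5422, 5940 and 5092 in *eml1 eml3*, against 3031, 5055 and 4626 in WT. The groups were just apart, with the lowest mutant library at 5092 and the highest WT library at 5055. The log2 change of 0.40 ± 0.18 (SE; 95% confidence interval 0.01 to 0.79) did not pass (limma adjusted p = 0.214). WT replicate 1 was low, and without it the change was 0.18 (limma adjusted p = 0.445). BZR1 (AT1G75080) was the least variable member, at 1371, 1400 and 1371 in *eml1 eml3* and 1293, 1345 and 1358 in WT. Its log2 change was 0.05 (95% confidence interval -0.20 to 0.30; limma adjusted p = 0.837), and it was -0.011 after rescaling libraries to one total. BES1 (AT1G19350), the close relative of BZR1 with 81.1% transcript identity over 1161 bases, stood at 3203, 3216 and 3282 in *eml1 eml3*, against 2611, 2830 and 3609 in WT. Its WT libraries spanned the mutant ones (log2 change 0.11, 95% confidence interval -0.18 to 0.41; limma adjusted p = 0.676). Both proteins are controlled mainly by phosphorylation, which RNA does not show.

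The genotypes did not overlap in 4 of the 9 members, BAS1, BRI1 and BZR1 higher and ROT3 lower in *eml1 eml3*, against 26.9% of all tested genes. Several values carry a counting limit, because the library protocol describes no step that marks the strand and these genes overlap an opposite-strand gene. BES1 shares 33.6% of its exon bases with RRA3, and BZR1 shares 14.7% with AT1G75090 and 11.4% with AT1G09523. CPD shares 20 bases with MOS7. RRA3 averaged 799 in *eml1 eml3* and 714 in WT (limma adjusted p = 0.589), so reads of BES1 and RRA3 cannot be fully separated. BAS1, DWF4, BRI1 and the BR6OX genes overlap no other annotated gene.

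Levels were compared between genes as normalized counts per kilobase of exon. The exon lengths include bases shared with opposite-strand genes, so the places of BES1 and BZR1 carry the counting limit given above. In *eml1 eml3* the order was BES1 (1327 ± 17.4), BRI1 (1254 ± 97.7), CPD (820 ± 77.4), BZR1 (718 ± 8.55), DWF4 (447 ± 31.8), ROT3 (383 ± 32.3), BR6OX2 (327 ± 51.3), BR6OX1 (306 ± 37.8) and BAS1 (279 ± 35.9; SD, n = 3 each). In WT the order was BES1 (1238 ± 215), BRI1 (968 ± 244), CPD (898 ± 84.9), BZR1 (692 ± 18.0), ROT3 (496 ± 23.5), DWF4 (397 ± 30.3), BR6OX2 (298 ± 59.6), BR6OX1 (293 ± 66.8) and BAS1 (140 ± 11.1; SD, n = 3 each). ROT3 and DWF4 stood in a different order in each genotype. Their ranges overlapped in *eml1 eml3*, and in WT every ROT3 value was above every DWF4 value. BAS1 was lowest in both genotypes. Its values overlapped those of BR6OX1 in *eml1 eml3* and lay below all of them in WT. BES1 and BRI1 overlapped in both genotypes, as did BR6OX2 and BR6OX1. BRI1 and CPD overlapped in WT, as did DWF4 and ROT3, and ROT3 and BR6OX2, in *eml1 eml3*.

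A ratio within a library does not depend on the size factors. The 5 synthesis enzymes summed to 2291, 2448 and 2109 normalized counts per kilobase in *eml1 eml3* and to 2373, 2480 and 2294 in WT, and these ranges overlapped. BAS1 amounted to 10.8%, 11.2% and 15.1% of that sum in *eml1 eml3*, against 6.26%, 5.78% and 5.54% in WT. BAS1 thus stood higher relative to the synthesis enzymes in each mutant library than in any WT library. This was not seen when the 6 genes of the inactivation list were added to BAS1. The percentages were then 38.6, 37.9 and 58.6 in *eml1 eml3*, against 44.5, 36.6 and 36.2 in WT, and the genotypes overlapped. BIA1 was the largest part of these values, at 398 normalized counts per kilobase in *eml1 eml3* and 503 in WT, and UGT73C6 added 0. Within the sum of the 5 synthesis enzymes, ROT3 made up 15.3% to 18.3% in *eml1 eml3* and 19.0% to 22.6% in WT. DWF4 made up 19.4% to 19.8% in *eml1 eml3* and 15.9% to 18.1% in WT. Shares of one sum are tied to each other, and these were described without a test.

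**Figure D3:**
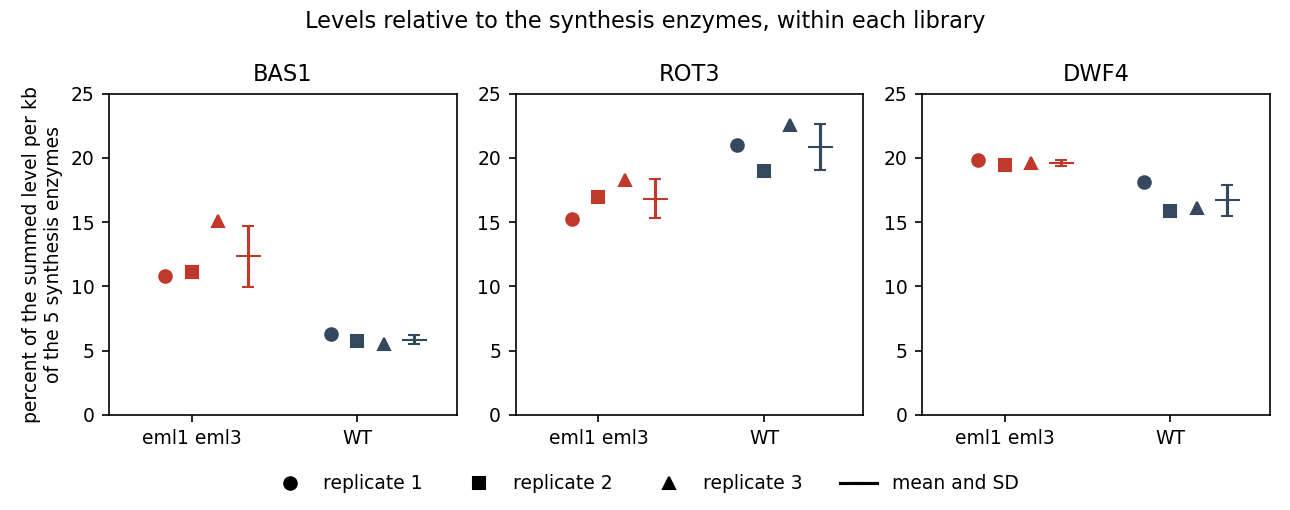
Level per kilobase of BAS1, ROT3 and DWF4 as a percent of the summed level per kilobase of the 5 synthesis enzymes (y axis), in each library of eml1 eml3 (red, left) and WT (dark blue, right), with mean and SD. BAS1 lies at 10.8% to 15.1% in eml1 eml3 and 5.54% to 6.26% in WT.

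Around the members, 68 further genes of the pathway were taken from 5 lists, and 67 of them had counts high enough to test. The gene left out, UGT73C6, had 0 reads in every library. It shares 100% of its exon bases with the opposite-strand gene AT2G36792, so the 0 may come from the counting. Of the 67 tested, 6 were higher and 1 was lower in *eml1 eml3* (10.4%, against 6.79% of all genes), and their median log2 change was 0.055. The lists were chosen with earlier results of these data known, so this share and those of single lists below are descriptive. The count of genes past the threshold depended on the libraries. It was 4 and 3 without WT replicates 1 and 2, 3 without *eml1 eml3* replicate 1 or 2, and 13 without *eml1 eml3* replicate 3, when 9 were higher and 4 lower, and DESeq2 on the recovered reads called 14.

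The response list held 17 genes that brassinosteroids are known to regulate or that act on the growth they promote. In it 3 rose in *eml1 eml3* and 0 fell (17.6%, against 6.79% of all genes), and the list's median log2 change was 0.28. As earlier results were known when the list was chosen, this share describes the list and is not a test of it. PRE6 (AT1G26945), also called KIDARI, is a small helix-loop-helix protein of the PRE group, which promotes cell elongation by binding other transcription factors. It stood at 747, 711 and 1103 in *eml1 eml3*, against 184, 242 and 334 in WT, which is 1.76 ± 0.25 higher on the log2 scale (limma adjusted p = 0.0024). Its relative PRE1 (AT5G39860) stood at 2903, 2870 and 3039 in *eml1 eml3*, against 1896, 1699 and 1614 in WT (log2 change 0.76 ± 0.11, limma adjusted p = 0.00293). EXPA8 (AT2G40610), an expansin that loosens cell walls, stood at 6067, 7370 and 6950 in *eml1 eml3*, against 4083, 4015 and 2966 in WT (log2 change 0.89 ± 0.14, limma adjusted p = 0.00496). In all 3 genes each mutant library was above each WT library, and all 3 passed under every alternative tried. Genes of this kind also respond to other growth signals in Arabidopsis, such as auxin, gibberellin and light.

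The groups of 4 more response genes were apart with the mutant higher but did not pass in limma or edgeR: PRE5, BEE1, SAUR15 and AIF1, named here after their values were seen. DESeq2 on the recovered reads called all 4, for 7 response genes in all. In the authors' deposited DESeq2 test the adjusted p of AIF1 was 0.0510, just above the threshold. SAUR15 (AT4G38850), an auxin- and brassinosteroid-induced growth gene, stood at 260, 233 and 221 in *eml1 eml3*, against 109, 80.3 and 161 in WT (limma adjusted p = 0.0561), and it passed under quantile normalization, without WT replicate 3 and without both libraries numbered 3. BEE1 (AT1G18400), a transcription factor first found by its induction by brassinosteroid, stood at 156, 186 and 59.2 in *eml1 eml3*, against 51.1, 47.0 and 48.5 in WT (limma adjusted p = 0.122). *eml1 eml3* replicate 3 was close to WT, and without that library, or without both libraries numbered 3, BEE1 and PRE5 passed. With all libraries 7 of the 17 response genes had the mutant wholly above WT and 0 wholly below, against 14% and 12.8% of all tested genes. The list was not sorted by the direction expected of each gene under brassinosteroid. These counts therefore do not measure a brassinosteroid response.

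**Figure D4:**
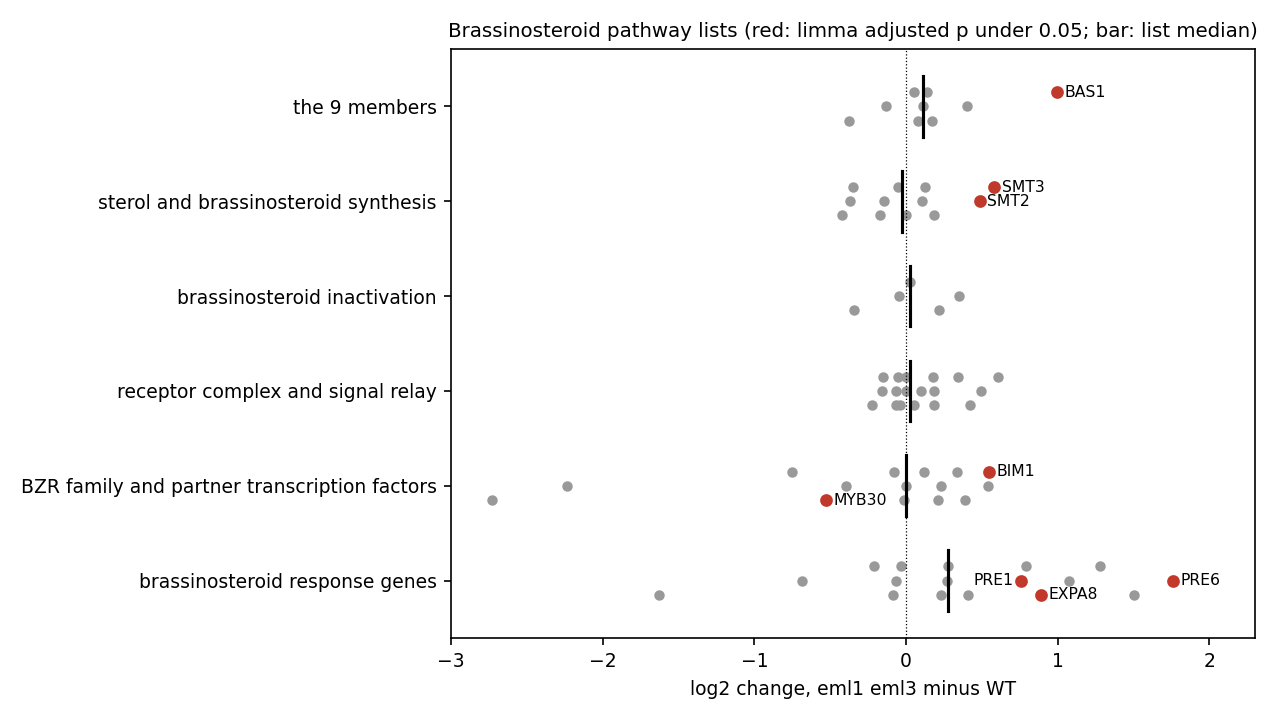
Log2 change (x axis, eml1 eml3 minus WT) of every tested gene in the 9 members and the 5 pathway lists, 1 point per gene, with the list median as a bar and genes past the limma threshold in red with their names. The response genes PRE6, PRE1 and EXPA8 lie at 1.76, 0.76 and 0.89, and the inactivation and receptor lists hold no red point.

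Among 12 genes of sterol and earlier brassinosteroid synthesis, 2 rose and 0 fell, and the list's median log2 change was -0.028. Both that rose are sterol methyltransferases, which steer sterols towards the bulk membrane sterol sitosterol and away from the campesterol branch that feeds brassinosteroids. SMT2 (AT1G20330) stood at 9402, 9405 and 9022 in *eml1 eml3*, against 6473, 6813 and 6581 in WT (log2 change 0.49 ± 0.10, limma adjusted p = 0.0159). SMT3 (AT1G76090) stood at 2466, 2477 and 1818 in *eml1 eml3*, against 1491, 1512 and 1467 in WT (log2 change 0.58 ± 0.14, limma adjusted p = 0.0344). The genotypes were apart for both. SMT2 lost its call without WT replicate 2 and without *eml1 eml3* replicate 1 or 2, with limma adjusted p of 0.0676 to 0.0893. SMT3 lost its call after rescaling to one total (limma adjusted p = 0.0725) and when any single library other than *eml1 eml3* replicate 3 was left out (limma adjusted p = 0.0826 to 0.153).

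Of 15 transcription factors of the BZR family and their partners, 1 rose and 1 fell in limma. DESeq2 on the recovered reads called 1 higher (BIM1) and 3 lower (MYB30, MYBL2 and TCP1). BIM1 (AT5G08130), a bHLH protein that binds DNA together with BES1, stood at 4260, 4141 and 4384 in *eml1 eml3*, against 2505, 3222 and 3052 in WT (log2 change 0.55 ± 0.12, limma adjusted p = 0.0229). Its upstream window, shown above, holds the response element at -184. The windows of the other pathway genes that passed, SMT2, SMT3, MYB30, PRE1, PRE6 and EXPA8, hold none. MYB30 (AT3G28910), a MYB factor that works with BES1, stood at 835, 815 and 983 in *eml1 eml3*, against 1275, 1321 and 1195 in WT (log2 change -0.53 ± 0.13, limma adjusted p = 0.0397). Each gene's groups were apart. Leaving out any single library other than *eml1 eml3* replicate 3 ended both calls, with limma adjusted p of 0.0516 to 0.0929 for BIM1 and 0.0737 to 0.165 for MYB30. TCP1 (AT1G67260), a transcription factor that activates DWF4, is named after its values were seen. It stood at 3.25, 20.3 and 30.2 in *eml1 eml3*, against 52.0, 58.8 and 92.4 in WT. The groups were apart at these low counts, and the gene did not pass in limma (log2 change -2.24 ± 0.74, limma adjusted p = 0.105). It was called lower by DESeq2 on the recovered reads, and by limma without *eml1 eml3* replicate 3. The authors' deposited DESeq2 test gave TCP1 a log2 change of -1.94 and an adjusted p of 0.0509, just above the threshold. MYBL2 and PIF4, also named after their values were seen, passed in limma only in fits with libraries left out. Both were called lower without *eml1 eml3* replicate 3 and without both libraries numbered 3.

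Of 18 genes of the receptor complex and signal relay, limma and edgeR called 0, with 1 at an unadjusted limma p under 0.05, and DESeq2 called BIL2. BIL2 (AT1G06390), a kinase closely related to BIN2, stood at 2685, 2615 and 2819 in *eml1 eml3*, against 1775, 2029 and 2284 in WT (limma adjusted p = 0.0680). It shares 265 exon bases with the opposite-strand gene ARA-2. The co-receptor gene BKK1 (AT2G13790) averaged 584 ± 140 in *eml1 eml3* and 417 ± 120 in WT (SD, n = 3 each; limma adjusted p = 0.284). Without both libraries numbered 3, limma called BIL2, BKK1 and BRS1 higher (BRS1 is named after its values were seen), and without *eml1 eml3* replicate 3 alone it called BRS1, a carboxypeptidase gene. Of the 5 tested inactivation genes besides BAS1, limma, edgeR and DESeq2 each called 0, with 0 at an unadjusted limma p under 0.05. The acyltransferase gene BIA1 (AT4G15400) averaged 668 ± 146 in *eml1 eml3* and 843 ± 147 in WT (SD, n = 3 each; limma adjusted p = 0.340). The glucosyltransferase gene UGT73C5 (AT2G36800) averaged 244 ± 81.0 in *eml1 eml3* and 186 ± 27.3 in WT (SD, n = 3 each; limma adjusted p = 0.516). BAS1 and the other inactivation genes were not tested against each other.

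BAS1 varied most among the 9 members over the 6 libraries, with an SD of 0.561 on the log2 scale. The genes most like it, by the root mean square difference between centred log2 profiles over the 6 libraries, were AT4G01070 (UGT72B1), a glucosyltransferase, at 0.0675, AT1G78820 at 0.0728, AT4G27030 (FAD4), a plastid fatty acid desaturase, at 0.0871, AT4G08170 at 0.0912 and AT4G01883 at 0.0916. UGT72B1 stood at 4008, 4331 and 5196 in *eml1 eml3*, against 2272, 2523 and 2186 in WT. Like BAS1, it was highest in *eml1 eml3* replicate 3 and lowest in WT replicate 3. It was picked for its likeness to BAS1 over these libraries, so this shared order is no separate result.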

How the data were processed

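The values analysed are a deposited signal per gene and library, namely read counts that the authors scaled by a size factor for each library. DESeq2 is named in the submitters' processing notes, along with Trim Galore, STAR 2.5.2a, SAMtools, featureCounts and Subread. The sources used here do not give settings, build, annotation or strandedness. Whole reads were recovered from 100% of values (tolerance 1e-06). The authors also deposited their own test per gene, with its log2 fold change, standard error, p-value and a statistic, a score that was not used. The members and gene lists were chosen with earlier results of these data known.

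Genes with a mean normalized count of at least 10 were tested with limma 3.58.1 in R 4.3.3 (variance trend, log2 of value + 1, genotype as the only term, two-sided). The added 1 pulls the log2 changes of low-count genes towards 0, but a fitted change can still exceed the authors' own, as for TCP1. The script was tested on simulated data. Alternatives were pseudocounts of 0.5 and 5, no filter, other scalings, a replicate block, edgeR 4.0.16 and DESeq2 1.42.0 on recovered reads, and leaving out libraries. Named were all members, each pathway gene past the threshold or, where a list had none, the 2 with the smallest p, and the 5 profiles nearest to the most variable member. Genes outside this rule are marked where they appear. Of the table's gene IDs 37051 matched RefSeq TAIR10.1 and 285 did not. Transcripts were aligned with BLAST 2.17.0.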

Additional observations from a re-analysis of the deposited data

How the results depend on the processing

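Among the 9 members the count past the threshold was 1 under all 16 alternatives, and that gene was BAS1. With 3 libraries a genotype, the intervals of the other members allow changes of the sizes given above. BR6OX1 changed sign between settings. It ranged from -0.10 to 0.23 (log2) with 1 library left out and was -0.074 without both libraries numbered 3. BZR1 was -0.011 after rescaling to one total. Other pathway genes past the threshold numbered 7, against 14 with DESeq2, 15 without both libraries numbered 3, and 3 to 13 with 1 library left out. All genes past it numbered 1476, against 2397, 2691, and 573 to 2537. Rescaling to one total gave 615 genes higher and 864 lower in *eml1 eml3*, against 802 and 674. The cause was not tested. The replicate numbers gave no sign of pairing the libraries: deviations from the genotype means correlated at -0.079, -0.002 and -0.169 between same-numbered libraries. With so few libraries this cannot show that no pairing existed. With a replicate block BAS1 kept its call (limma adjusted p = 0.0255, edgeR 0.0317), and pathway calls numbered 6 in limma and 5 in edgeR, where MYB30 (both tools) and SMT3 (edgeR) did not pass.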
